A study of Mus musculus with 62 samples.

Results

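The endothelial identity genes are a set of 36 genes whose products build, mark or instruct the cells that line blood vessels. They were picked by name, with earlier results of these data known, and all 36 were found among the 55487 genes of the count table. All 36 also passed the filter on low counts, which left 14549 genes for testing. They fell into 5 roles, with 5 genes of cell junctions and adhesion, 5 transcription factors, 12 receptors and signalling proteins, 3 members of the Notch pathway and 11 proteins of the cell surface, matrix and cytoskeleton.

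The study measured poly-A RNA in the quadriceps muscle of 62 male mice in which voluntary running in a wheel was crossed with 2 supplements, nicotinamide riboside (NR, a precursor of the coenzyme NAD) and pterostilbene (PT, a plant compound of the resveratrol family). Runners that received neither supplement and runners that received NR alone numbered 7 each, whereas runners given PT alone, runners given both and each of the 4 matching groups without running held 8 animals, so that 30 runners faced 32 non-runners. NR was intravenous, per the title of the series. Strain, age, doses, distances run and the time between the last run and death are not stated in the labels. The animals were killed on 8 days, days 1 to 4 for a first cohort and days 5 to 8 for a second, and on each day all runners were taken at one time of day and all non-runners at the other. Runners were taken at noon on days 1, 3, 6 and 8 and in the morning on the other days.

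Endothelial cells adhere to each other through VE-cadherin junctions, and their identity is maintained by transcription factors of the ETS and SOX families and by signalling through VEGF receptors, the Tie receptors and Notch. In skeletal muscle most of these cells form the capillary bed around the fibres, and endurance exercise is known to enlarge this bed. Because the whole muscle was sequenced, more or fewer endothelial cells and more or less RNA per cell cannot be told apart.

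Library totals ran from 5.64 M to 30.8 M counted reads, with a median of 16.1 M. RNA integrity numbers averaged 9.54 ± 0.36 (SD, n = 30) in runners and 9.61 ± 0.28 (SD, n = 32) in non-runners. The summed level of 8 myofibre genes was 147742 to 201816 CPM (counts scaled to the library size, with TMM-scaled libraries) in runners and 156658 to 199396 CPM in non-runners, so the genes that define the labelled muscle were abundant in every library. In 4 libraries, 2 of runners and 2 of non-runners, a group of 11 genes carrying ribosomal RNA-like sequence took over 5 times the median share of reads. The farthest was replicate 1 of the runners given NR alone, with 29.1% of its reads in these genes and a total of 5.64 M, and values without it are also given for the 9 members in which it was the highest library and for the arm that holds it. Among the members, 13 overlap another annotated gene. In Eng, Plvap, Kank3, Rasip1 and Ramp2 that gene had a median of at least 8 reads, so their counts are less certain. Whether reads were counted by strand is not stated. For Ramp2 the overlapping gene, Vps25, lies on the same strand, so counting by strand would not separate them.

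In non-runners the members spanned a wide range of levels per deposited gene length. The water channel gene Aqp1 was the highest at 109 ± 18.7 RPKM (CPM per kilobase of the deposited gene length, SD, n = 32). It was followed by Cdh5 at 17.3 ± 1.33 RPKM and by the sphingosine-1-phosphate receptor gene S1pr1 at 10.5 ± 2.05 RPKM. The gap between Aqp1 and Cdh5 was far larger than the spread of either gene, whereas S1pr1, Pecam1 (9.58 ± 0.936 RPKM) and Egfl7 (9.52 ± 1.17 RPKM) lay within 1 SD of each other. At the lower end were Notch1 at 0.941 ± 0.155 RPKM, Flt4 at 0.79 ± 0.131 RPKM and Tal1 at 0.513 ± 0.139 RPKM. Tal1 had a median of 39.5 reads per library and as few as 8.

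Running was accompanied by higher levels of nearly the whole set. Of the 36 members, 31 rose and 0 fell at an adjusted p below 0.05 (edgeR quasi-likelihood test), against 8.41% of all 14549 tested genes that rose, 5.58% that fell and 14% in either direction. All 36 had a fitted log2 change above 0, with a median of 0.23 (1.17-fold) and a range of 0.06 to 0.42, whereas the median over all tested genes was 0.01 and 55.1% of them lay above 0. For none of the 36 members were runners and non-runners fully separated, and the share of all tested genes so separated was not counted. Of the 5 members that did not pass, Icam2, Tal1, Ecscr, Podxl and Plvap, each belonged to a role in which most other members rose.

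**Figure D1:**
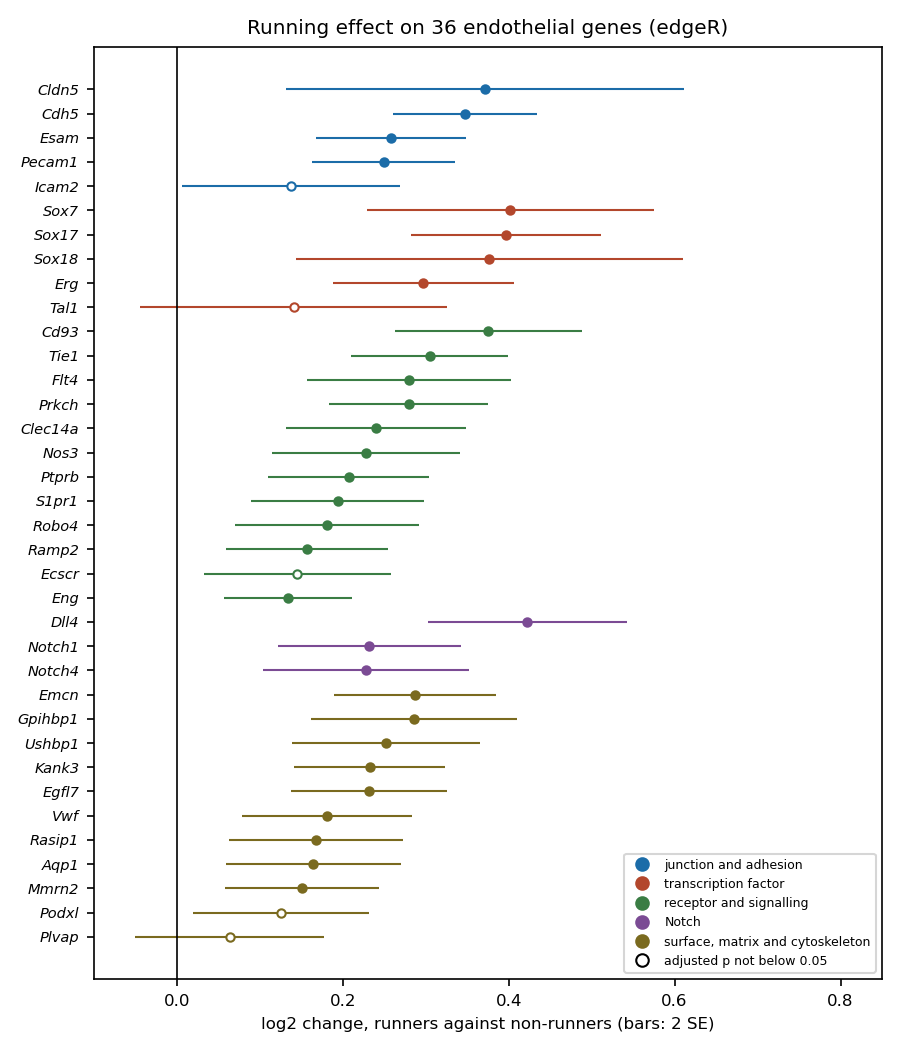
Fitted log2 change of runners against non-runners (horizontal axis) for the 36 genes, coloured by role and ordered by size within a role. Points are the edgeR estimates over 30 runners and 32 non-runners, bars are 2 standard errors, and open points did not reach an adjusted p below 0.05. All 36 points lie to the right of 0, and Dll4 at 0.42 is the farthest from it.

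Promoter sequence was held for 17 of the 36 members, in 22 windows of 250 bases before an annotated transcript start (RefSeq, GRCm38.p6, the same build as mm10). The windows were searched on both strands for 3 strings of the kind that ETS factors such as ERG and FLI1 recognise, namely AGGAAG, the variant CAGGAA and the variant CCGGAA, with overlapping matches joined. A match was present in 13 of the 22 windows (59.1%), compared with 48.8% of 32851 windows of the same length from all genes. Some members had more than 1 window, and 12 of the 17 had a match. The median share of G and C was 58.4% in the windows of the members and 52.4% in all windows. The SOX-type string AACAAT or its variant ACAAAG was present in 5 of the 22 (22.7%), compared with 24% of all windows. The windows of 4 genes follow, 5′ to 3′ on the strand of the gene, with ETS-type matches in capitals. They were chosen with the matches and the running values in view, to show 3 genes with several matches that rose with running and 1 that rose with none.
Tie1, chr4:118489850-118490099, minus strand, GRCm38.p6: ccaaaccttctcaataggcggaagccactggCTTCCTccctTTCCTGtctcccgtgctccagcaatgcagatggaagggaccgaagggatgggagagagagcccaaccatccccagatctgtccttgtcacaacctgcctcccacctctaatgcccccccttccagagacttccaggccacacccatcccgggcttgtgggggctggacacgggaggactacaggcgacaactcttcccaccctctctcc
Emcn, chr3:137340828-137341077, plus strand, GRCm38.p6: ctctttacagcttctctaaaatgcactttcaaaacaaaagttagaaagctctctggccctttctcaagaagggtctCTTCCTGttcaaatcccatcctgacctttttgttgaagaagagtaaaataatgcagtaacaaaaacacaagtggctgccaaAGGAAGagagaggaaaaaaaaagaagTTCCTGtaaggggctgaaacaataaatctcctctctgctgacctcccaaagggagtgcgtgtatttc
Notch4, chr17:34564045-34564294, plus strand, GRCm38.p6: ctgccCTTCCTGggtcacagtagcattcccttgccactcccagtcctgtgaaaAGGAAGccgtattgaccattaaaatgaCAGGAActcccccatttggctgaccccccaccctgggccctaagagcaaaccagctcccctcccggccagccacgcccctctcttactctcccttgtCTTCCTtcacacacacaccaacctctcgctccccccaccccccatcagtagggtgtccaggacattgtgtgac
Dll4, chr2:119325534-119325783, plus strand, GRCm38.p6: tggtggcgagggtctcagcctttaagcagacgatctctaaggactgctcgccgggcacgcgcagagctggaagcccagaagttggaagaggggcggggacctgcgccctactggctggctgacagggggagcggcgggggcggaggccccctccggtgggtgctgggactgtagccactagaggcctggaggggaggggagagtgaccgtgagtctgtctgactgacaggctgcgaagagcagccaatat
The matches began 219 and 209 bases before the start of Tie1, 174, 93 and 67 bases before that of Emcn, and 245, 197, 170 and 73 bases before that of Notch4. Dll4, whose window is 65.6% G and C, held none of the 3 searched strings, although the shorter string GGAA, which was not searched, occurs in it. Cldn5, Flt4 and Kank3 also rose with running and held no match in their windows. Whether matches go with the size of the running change was not tested. A match is a string of letters and not a measured binding site.

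Among the junction and adhesion genes, 4 of 5 rose. Cdh5, which encodes VE-cadherin, the adhesive cadherin of endothelial junctions (mm10, chromosome 8, 104101625 to 104144511), had a lowest, median and highest level of 64.8, 88.5 and 136 CPM in the 30 runners and of 61.3, 73.6 and 83.5 CPM in the 32 non-runners. The groups overlapped at the low end, but 22 of the 30 runners lay above the highest non-runner, more than for any other member. The runners also spread more widely, with an SD on the log2 scale 2.23 times that of the non-runners. The log2 change was 0.35 ± 0.04 (SE, adjusted p = 3.91e-07, edgeR).

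Pecam1, the platelet and endothelial adhesion molecule also known as CD31, lay at 53, 70.9 and 99.5 CPM (lowest, median, highest) in runners and at 45.8, 59.9 and 71.4 CPM in non-runners. Most runners fell inside the range of the non-runners, and 12 lay above it. It rose by 0.25 ± 0.04 on the log2 scale (adjusted p = 7.03e-05, edgeR). Esam, an immunoglobulin-family adhesion molecule of endothelial junctions and platelets, was at 22.5, 28.2 and 41 CPM in runners and at 18.9, 24.9 and 30.1 CPM in non-runners. Here 9 runners exceeded every non-runner and 9 non-runners fell below every runner. Its log2 change was 0.26 ± 0.05 (adjusted p = 7.79e-05, edgeR).

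The tight junction gene Cldn5 had a larger estimate, 0.37, but also the largest standard error of the 36, ± 0.12 (adjusted p = 0.0306, edgeR). Its differences by day ran from -0.43 on day 7 to 1.52 on day 1, and it lost the call in 13 of 20 alternative analyses, among them leaving out days 1 and 2. Icam2, an adhesion molecule that leukocytes bind, did not pass. Its levels were 3.69, 5.24 and 7.21 CPM in runners and 2.55, 4.85 and 6.96 CPM in non-runners, and 1 runner lay above and 2 non-runners below the overlap. The log2 difference was 0.14 ± 0.07 (adjusted p = 0.153, edgeR).

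Of the 5 transcription factors, 4 rose, and the 3 members of the SOXF family, which act in arterial and lymphatic specification, had log2 changes of 0.38 to 0.40. Sox17, the member known for arterial identity (mm10, chromosome 1, 4490931 to 4496413), was at 5.03, 7.7 and 11.6 CPM in runners and at 3.53, 5.93 and 8.24 CPM in non-runners. The ranges overlapped between 5.03 and 8.24 CPM, with 11 runners above and 8 non-runners below the overlap. Its log2 change was 0.40 ± 0.06 (adjusted p = 3.85e-06, edgeR).

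Sox7 showed levels of 3.29, 7.12 and 11.8 CPM in runners and 3.31, 5.45 and 9.11 CPM in non-runners. Its lowest runner lay below every non-runner, although 24 of 30 runners exceeded the non-runner of the same day and supplement arm. The log2 change was 0.40 ± 0.09 (adjusted p = 0.00108, edgeR). Sox18, mutated in disorders of lymphatic vessels and hair, changed by 0.38 ± 0.12 (adjusted p = 0.0233, edgeR) and lost the call in 9 of the 20 alternatives.

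Erg, the ETS factor that maintains the endothelial gene program, had levels of 7.18, 11.3 and 14.8 CPM in runners and 6.83, 8.92 and 12.8 CPM in non-runners. The overlap was wide, with 5 runners above all non-runners, yet the runner mean was the higher one on each of the 8 days. Its log2 change was 0.30 ± 0.05 (adjusted p = 0.000151, edgeR), and together with Cdh5 and Cd93 it was 1 of the 3 members that kept the call in all 20 alternatives. Tal1, a helix-loop-helix factor of the blood and endothelial lineages, was at 1.07, 2.52 and 3.82 CPM in runners and at 1.32, 2.13 and 3.58 CPM in non-runners. Runners held both the lowest and the highest animal. The difference of 0.14 ± 0.09 did not pass (adjusted p = 0.324, edgeR), at a median of 39.5 reads per library.

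Receptors and signalling genes were the largest role, and 11 of its 12 members rose. Cd93, a C-type lectin-like receptor that binds the matrix protein multimerin 2, was at 37, 52.4 and 91 CPM in runners and at 31.2, 41.3 and 51.9 CPM in non-runners. Of the 30 runners, 17 exceeded the highest non-runner, and the highest value belonged to the library rich in ribosomal-like reads. The log2 change was 0.38 ± 0.06 (adjusted p = 1.07e-05, edgeR) with that library and 0.34 without it.

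Tie1, an orphan receptor tyrosine kinase that modulates angiopoietin signalling, was at 30.7, 39.9 and 58.5 CPM in runners and at 25.9, 32.7 and 38.2 CPM in non-runners. The groups overlapped in the lower part of the range of the runners, and 19 runners exceeded every non-runner. Its log2 change was 0.30 ± 0.05 (adjusted p = 1.37e-05, edgeR). Prkch, which encodes the eta form of protein kinase C, lay at 8.33, 9.82 and 14.2 CPM in runners and at 5.95, 8.21 and 11.3 CPM in non-runners. The separation was at the low end, where 18 of the 32 non-runners fell below the lowest runner. It changed by 0.28 ± 0.05 (adjusted p = 6.52e-05, edgeR).

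The other members of this role that rose did so by 0.13 to 0.28 on the log2 scale. They were Flt4, which encodes the VEGF-C receptor VEGFR3 (0.28), Clec14a, a lectin-like receptor related to Cd93 (0.24), the nitric oxide synthase gene Nos3 (0.23), Ptprb, the phosphatase that acts on VE-cadherin and the Tie2 receptor (0.21), S1pr1 (0.19), the guidance receptor gene Robo4 (0.18), Ramp2, a partner protein of the adrenomedullin receptor (0.16), and Eng, the TGF-beta co-receptor endoglin (0.13). Robo4, Ramp2 and Eng lost the call in 10, 8 and 6 of the 20 alternatives. Without the library rich in ribosomal-like reads, which was the highest in Flt4, Ptprb, Robo4 and Eng, as in Prkch, the log2 changes were 0.24, 0.17, 0.14, 0.11 and 0.26. Ecscr, a surface regulator of endothelial migration, did not pass. It lay at 3.88, 6.65 and 9.97 CPM in runners and at 4.53, 6.21 and 7.69 CPM in non-runners, so that the runners extended beyond the non-runners on both sides. The log2 difference was 0.15 ± 0.06 (adjusted p = 0.0723, edgeR).

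All 3 Notch pathway members rose. Dll4, the endothelial ligand of Notch that is induced by VEGF and restrains sprouting (mm10, chromosome 2, 119325784 to 119335962), was at 10.2, 14 and 25.4 CPM in runners and at 8.12, 10.1 and 15.3 CPM in non-runners. The lowest runner lay above 18 of the 32 non-runners, and 9 runners lay above all of them. Its log2 change of 0.42 ± 0.06 (adjusted p = 3.11e-06, edgeR) was the largest estimate among the 36 members.

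Notch1, a receptor of Dll4, was at 11.3, 15.2 and 34.4 CPM in runners and at 9.76, 13.4 and 19.6 CPM in non-runners. Apart from the library rich in ribosomal-like reads, at 34.4 CPM, a single runner exceeded the highest non-runner. The log2 change was 0.23 ± 0.06 (adjusted p = 0.00286, edgeR) with that library and 0.19 (adjusted p = 0.00397, edgeR) without it. Notch4, the endothelial Notch receptor, was at 7.04, 11.4 and 23.3 CPM in runners and at 6.75, 10.2 and 14.3 CPM in non-runners, with the highest value again in that library. Including it, 3 runners exceeded every non-runner. It rose by 0.23 ± 0.06 (adjusted p = 0.00969, edgeR) with the library and by 0.19 (adjusted p = 0.0173, edgeR) without it, and it lost the call in 6 of the 20 alternatives, among them leaving out days 1 and 2 (0.18, adjusted p = 0.0703, edgeR).

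Of the 11 surface, matrix and cytoskeletal genes, 9 rose. Emcn, which encodes the sialoglycoprotein endomucin of capillaries and veins, was at 8.71, 11.3 and 15.1 CPM in runners and at 6.89, 9.21 and 12.7 CPM in non-runners. Its runner mean was higher on every day, while 6 runners lay above and 9 non-runners below the overlap of the groups. The log2 change was 0.29 ± 0.05 (adjusted p = 5.64e-05, edgeR). Kank3, an ankyrin repeat protein that regulates actin, was at 17.4, 21.7 and 31.4 CPM in runners and at 14, 18.5 and 23.4 CPM in non-runners. It showed 10 non-runners below all runners and changed by 0.23 ± 0.05 (adjusted p = 0.000338, edgeR).

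Egfl7, a secreted matrix protein of endothelial cells, was at 29.6, 38.8 and 56.3 CPM in runners and at 26, 33.7 and 43.3 CPM in non-runners. The overlap covered most non-runners, and 9 runners lay above it. It rose by 0.23 ± 0.05 on the log2 scale (adjusted p = 0.000575, edgeR). The others that rose were Gpihbp1, which carries lipoprotein lipase to the capillary lumen (0.29), Ushbp1 (0.25), Vwf, the carrier of clotting factor VIII that tethers platelets (0.18), Rasip1, needed for vessel lumen formation (0.17), Aqp1 (0.16) and Mmrn2, the multimerin that Cd93 and Clec14a bind (0.15). Rasip1, Aqp1 and Mmrn2 lost the call in 9, 7 and 7 of the 20 alternatives, and Vwf changed by 0.14 without the library rich in ribosomal-like reads, which was its highest.

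The other 2 surface genes did not pass. Podxl, the sialomucin podocalyxin of the luminal surface, lay at 41.7, 53.5 and 78.7 CPM in runners and at 33.2, 49 and 62.5 CPM in non-runners. The bulk of the animals of both groups shared the same range, and the difference was 0.13 ± 0.05 (adjusted p = 0.103, edgeR). Plvap, the protein of the diaphragms of fenestrae and caveolae (mm10, chromosome 8, 71497765 to 71511752), was at 8.07, 12.7 and 19.1 CPM in runners and at 8.81, 12.1 and 16.1 CPM in non-runners. A single runner lay above the highest non-runner, and no non-runner lay below the lowest runner. Its log2 difference of 0.06 ± 0.06 (adjusted p = 0.497, edgeR) was the smallest of the 36, and runners were the higher ones on 5 of the 8 days.

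**Figure D2:**
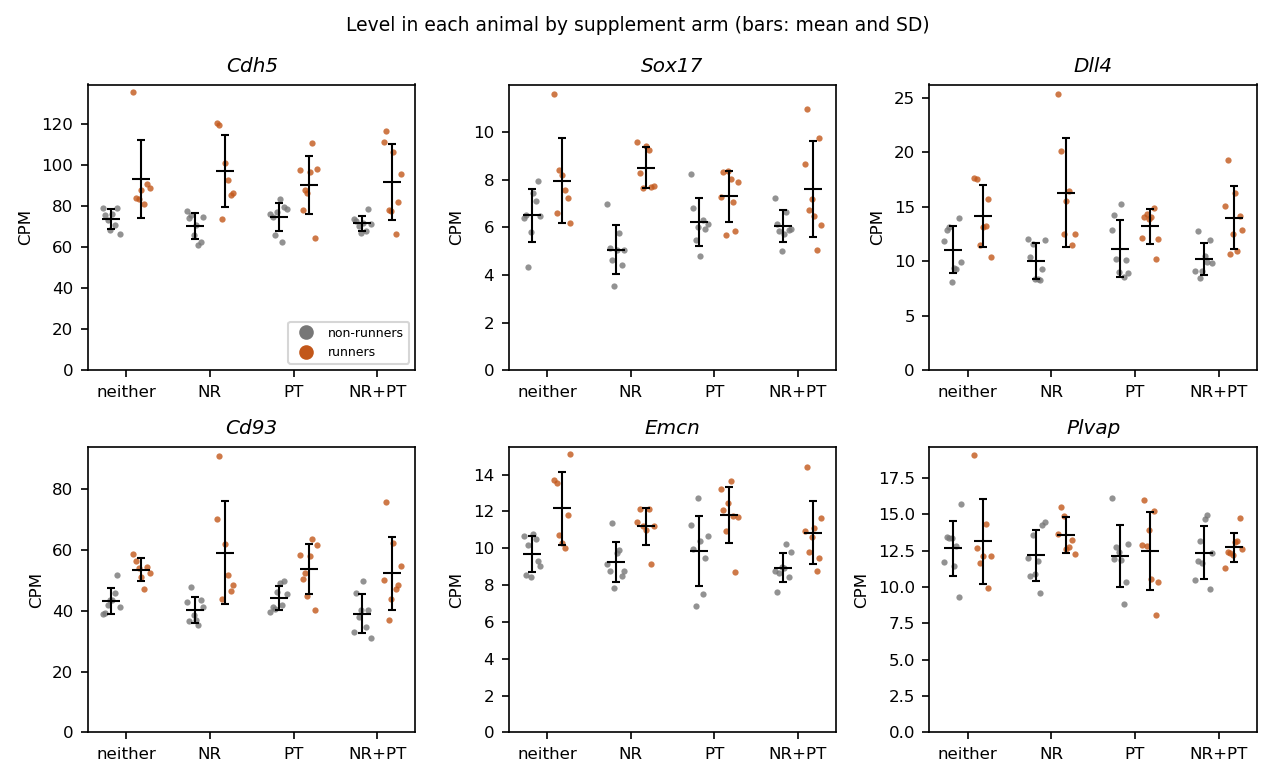
Level in CPM (vertical axis, from 0) of 6 members in each animal, by supplement arm, with non-runners in grey and runners in orange; horizontal bars are group means and vertical bars SDs of 7 or 8 animals. In Cdh5 the highest runner of each arm lies between 111 and 136 CPM while the highest non-runner is at 83.5 CPM, whereas in Plvap the groups occupy the same range.

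The difference was also followed day by day, since each day held runners and non-runners of every arm or nearly so. Within a day the 2 were killed at different times, so each day's difference and each same-day pair also holds any difference by time of day. In the mean of log2 CPM, 16 of the 36 members were higher in runners on all 8 days, 10 on 7 days, 6 on 6 days, 3 on 5 days and 1, Tal1, on 4 days. With a prior count of 2 added, 44.4% of the members and 4.72% of all tested genes were higher on all 8 days. Set against the non-runner of the same day and arm, 30 such pairs in all, runners were higher in 17 to 27 pairs depending on the member, with a median of 23.

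The size of the difference varied between days. The median over the members was 0.28, 0.23, 0.22 and 0.33 on days 1 to 4 and 0.36, 0.15, 0.09 and 0.13 on days 5 to 8. The number of members higher in runners was at least 31 on days 1 to 6, then 29 on day 7 and 26 on day 8. Fitted on the first cohort alone, 18 members rose, and on the second alone 3 rose, Cd93, Cdh5 and Erg, against 4.31% and 0.42% of all genes called. A test of the difference between cohorts called 0 members (0% of all genes, edgeR), with 0 also by DESeq2. Of the 36 estimates, 33 were smaller in the second cohort, with a median difference of -0.10 on the log2 scale over the 36, and 2 had an unadjusted p below 0.05, Esam (-0.22 ± 0.09) and Sox17 (-0.22 ± 0.11). Both had an adjusted p of 0.999793 in edgeR. Of all 14549 tested genes, 394 had an unadjusted p below 0.05 in this test, and 47.7% of the estimates were above 0.

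**Figure D3:**
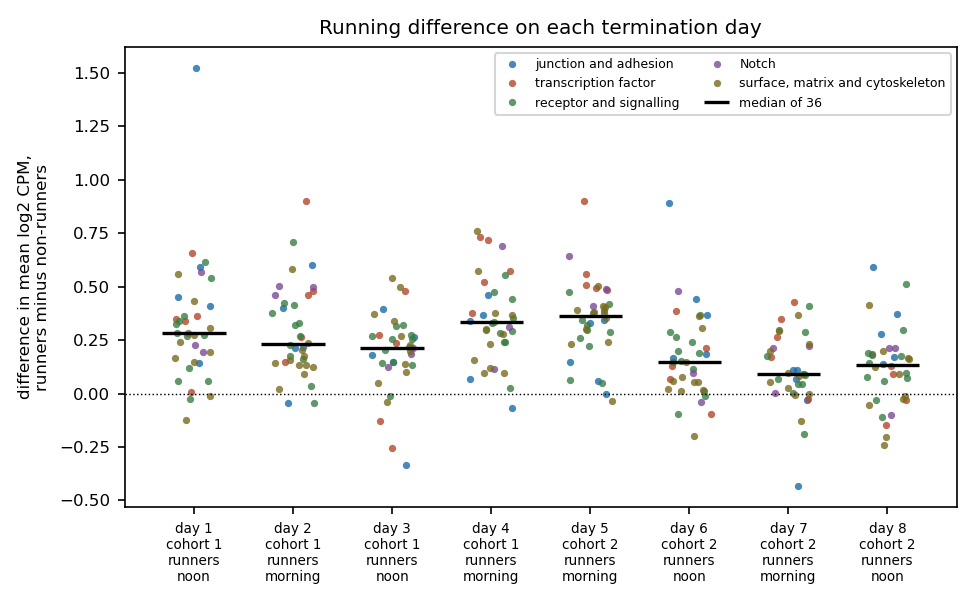
Difference in mean log2 CPM between runners and non-runners (vertical axis) on each of the 8 days, 1 point per gene coloured by role, with a bar at the median of the 36. The medians lie between 0.09 on day 7 and 0.36 on day 5, and the point at 1.52 on day 1 is Cldn5.

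A few animals held most of the highest values of the members. Of the 36 highest values, 31 belonged to 4 runners killed on days 1 and 2, replicates 1 and 2 of the runners given NR alone (9 and 8 members), replicate 3 of those given both supplements (7) and replicate 1 of those given neither (7). Their RNA integrity numbers were 9.1 to 9.6. Of these 4 animals, 3 were above the median non-runner in all 36 members. Replicate 1 of the runners given NR alone is the library rich in ribosomal-like reads. All values of an animal come from 1 library, so these counts are not independent of each other. How the highest values of all tested genes were spread over the animals was not counted. Among all 30 runners the number of members above the non-runner median ran from 8 to 36 with a median of 30.5, and among the 32 non-runners from 1 to 33 with a median of 19. Without days 1 and 2, 24 members rose, against 9.86% of all genes called.

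Within single supplement arms the tests set 7 or 8 runners against 8 non-runners and called fewer members, although nearly all estimates stayed above 0. Without any supplement, 0 of 36 members were called (0% of all genes, edgeR, and 0 by DESeq2), while all 36 estimates were above 0 with a median of 0.20, and 17 had an unadjusted p below 0.05. Under NR alone 16 members rose (0.406% of all genes rose, 0.0412% fell and 0.447% were called), all 36 were above 0 and the median was 0.36. Under PT alone 0 were called (0.00687% of all genes, and 0 by DESeq2), 34 were above 0, the median was 0.14 and 10 had an unadjusted p below 0.05. Under both supplements 5 members rose, Cd93, Cdh5, Dll4, Erg and Prkch (0.825% of all genes rose, 0.873% fell and 1.7% were called), 35 were above 0 and the median was 0.22. Of all 14549 tested genes, 990 had an unadjusted p below 0.05 without any supplement and 1342 under PT alone (edgeR). The shares of all genes with an estimate above 0 were 52.1% without any supplement, 53.2% under NR alone, 53.6% under PT alone and 54.3% under both.

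**Figure D4:**
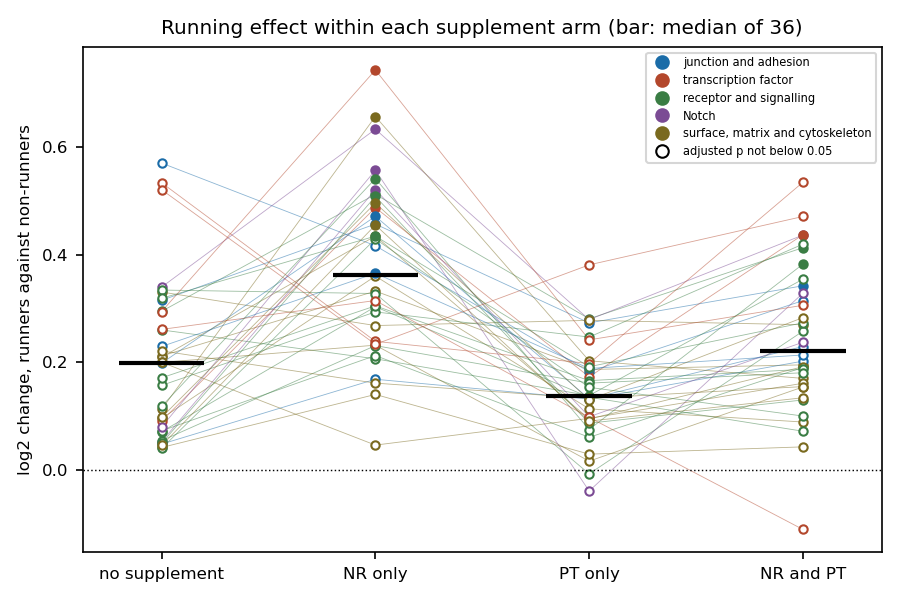
Fitted log2 change of runners against non-runners (vertical axis) within each supplement arm, 1 point per gene joined by lines and coloured by role, with open points where the adjusted p was not below 0.05 and a bar at the median of the 36. The medians are 0.20, 0.36, 0.14 and 0.22 from left to right.

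In the arm given NR alone the member with the smallest p was Sox17. It lay at 7.64, 8.28 and 9.57 CPM in the 7 runners and at 3.53, 5.03 and 6.99 CPM in the 8 non-runners. The lowest runner was above the highest non-runner, and how many of all tested genes were separated in this way was not counted. Its log2 change was 0.74 ± 0.12 (adjusted p = 0.00078, edgeR). The non-runners of this arm had the lowest Sox17 mean of the 8 groups, 5.06 ± 1.01 CPM (SD, n = 8), beside 6.5 ± 1.1 CPM in non-runners without supplement.

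The remaining 15 members that rose in this arm were Cdh5, Pecam1, Esam, Erg, Cd93, Tie1, Prkch, S1pr1, Dll4, Notch1, Notch4, Gpihbp1, Kank3, Ushbp1 and Vwf. Dll4 changed by 0.63 (adjusted p = 0.00631, edgeR), Prkch by 0.54 (adjusted p = 0.00519, edgeR) and Cdh5 by 0.46 (adjusted p = 0.00631, edgeR). This arm holds the library rich in ribosomal-like reads, and without it 9 members rose, Cdh5, Dll4, Erg, Esam, Gpihbp1, Kank3, Prkch, S1pr1 and Sox17 (0.177% of all genes called). Dll4, Prkch and Cdh5 then changed by 0.61, 0.50 and 0.40. Without day 4 a single member, Sox17, rose (0.0136% of all genes called).

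Whether the running difference varied between arms was tested directly, and no member passed. The joint test of a difference among the 4 arms called 0 members (0% of all genes, edgeR, and 0 by DESeq2), and 8 had an unadjusted p below 0.05. Notch1 came first in this test (adjusted p = 0.999943, edgeR). The change with running was larger with NR than without it in 30 of 36 members, by a median of 0.11 on the log2 scale, with 0 called (0% of all genes, and 0 by DESeq2), 10 at an unadjusted p below 0.05, and Notch1 the first of them (0.42 ± 0.11, or 0.35 without the library rich in ribosomal-like reads). With PT the change was smaller in 29 of 36, by a median difference of -0.09, again with 0 called (0% of all genes, and 0 by DESeq2), and with Sox17 the only one at an unadjusted p below 0.05 (-0.25 ± 0.11). Of all 14549 tested genes, 424 had an unadjusted p below 0.05 in the joint test, 525 in the test with NR and 511 in that with PT (edgeR). The shares of all genes with an estimate above 0 were 51.5% with NR and 51.1% with PT.

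The supplements themselves, averaged over runners and non-runners, moved no member past the threshold. For NR, 0 members were called (0.0206% of all genes, of which 0.0137% rose and 0.00687% fell, edgeR, and 0 by DESeq2), 31 of 36 estimates were below 0 with a median of -0.04, and 3 had an unadjusted p below 0.05. Icam2 had the smallest p for NR, with a log2 difference of -0.16 ± 0.07 (adjusted p = 0.732, edgeR). For PT, 0 were called (0% of all genes, edgeR, and 0 by DESeq2), 28 were below 0 with a median of -0.03, and 0 had an unadjusted p below 0.05. Egfl7 came first there, at -0.08. Noon against morning also gave 0 called (0% of all genes, edgeR, and 0 by DESeq2), with 13 of 36 above 0 and 5 at an unadjusted p below 0.05. Cldn5 had the smallest p for time of day (0.32 ± 0.12, adjusted p = 0.733, edgeR). Of all 14549 tested genes, 828 had an unadjusted p below 0.05 for NR, 580 for PT and 768 for time of day (edgeR). The shares of all genes above 0 were 49.7%, 48.4% and 47.8%. In these data time of day and running were opposite within every day, so the 2 were separated only through the alternation between days.

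Other gene lists of the vasculature were counted in the same fit, in which 8.41% of all tested genes rose and 5.58% fell. Of 35 further endothelial genes, 24 rose and 0 fell, with a median of 0.20 and 34 above 0. Among them the apelin receptor gene Aplnr changed by 0.63, the ETS factor gene Fli1 by 0.32, the guanine nucleotide exchange factor gene Arhgef15 by 0.26 and the caveolin gene Cav1 by 0.20. In the list of VEGF, angiopoietin and apelin ligands and receptors 9 of 14 rose and 0 fell, and the smallest p-values were those of the co-receptor gene Nrp2 (0.28), Aplnr, the apelin gene Apln (0.63) and the co-receptor gene Nrp1 (0.22). Of 16 partners of the Notch pathway 2 rose, Nrarp, a feedback target (0.40), and the ligand gene Jag1 (0.15), and 0 fell. Hey1 (0.15), Heyl (0.14), Hes1 (0.09) and Hey2 (-0.15) of this list were not called.

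Marker lists of vessel types gave 7 of 11 capillary genes that rose, led by Btnl9 (0.64), Car4 (0.48), Cd300lg (0.19) and the lipoprotein lipase gene Lpl (0.29), a gene that muscle fibres and fat cells also express. Of 8 arterial genes 4 rose, Efnb2 (0.33), Gja5 (0.30), Sema3g (0.17) and Jag1 (0.15). Of 7 venous genes 2 rose, Ephb4 (0.20) and Selp (0.35), and of 6 lymphatic genes 0, with Mmrn1 the first (0.27, adjusted p = 0.153, edgeR). Of 12 genes of sprouting endothelium 7 rose, among them the actin-bundling gene Fscn1 (0.39), Apln and the basement membrane collagen genes Col4a1 (0.37) and Col4a2 (0.32). Kcne3, Pgf, Angpt2, Adm and Esm1 of this list were not called, and the estimate of Esm1 was below 0 (-0.12, adjusted p = 0.647, edgeR). No gene of these 4 vessel lists or of the sprouting list fell. Of 7 cell division genes that passed the filter, out of 12, 0 were called, and Top2a came first (0.47, adjusted p = 0.0765, edgeR). Their median was 0.26, with 5 estimates above 0. The lists share genes (Kdr, Jag1, Apln and others), so their counts are not independent of each other.

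**Figure D5:**
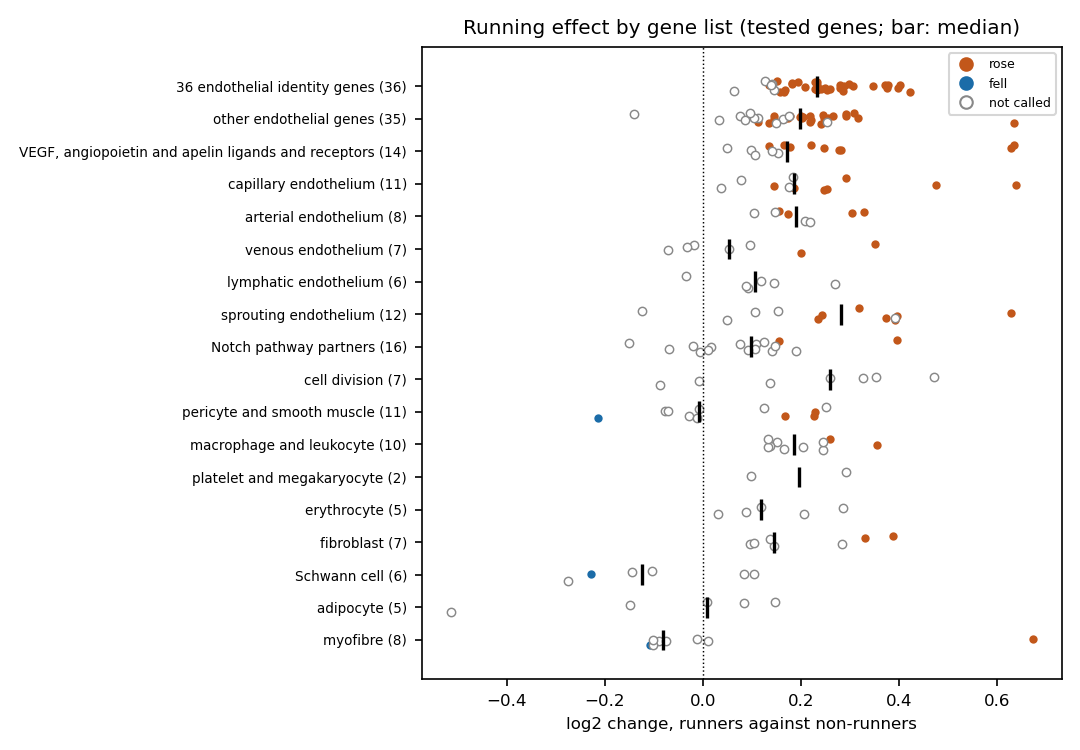
Fitted log2 change of runners against non-runners (horizontal axis) for each tested gene of the 36 endothelial genes and of 17 other lists, with the number of tested genes in brackets, filled points for genes that rose (orange) or fell (blue), open points for genes not called, and a bar at each median. The medians of the endothelial lists lie between 0.05 for venous and 0.28 for sprouting genes. Medians above 0 are also those of cell division (0.26), platelet (0.19), macrophage and leukocyte (0.18), fibroblast (0.15), erythrocyte (0.12) and adipocyte (0.01) genes. Those of the pericyte and smooth muscle (-0.01), myofibre (-0.08) and Schwann cell (-0.12) genes lie below 0.

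Several cell types can share a marker with endothelium, and their lists moved as follows, beside 8.41% of all tested genes that rose and 5.58% that fell. Of 11 pericyte and smooth muscle genes 3 rose, Rgs5 (0.23), Pdgfrb (0.23) and Cspg4 (0.17), and 1 fell, the smooth muscle actin gene Acta2 (-0.21). Their summed level was 696 to 959 CPM in runners and 659 to 859 CPM in non-runners. Of these 11 genes, 5 had an estimate above 0, with a median of -0.01 over the list. Of 10 tested macrophage and leukocyte genes 2 rose, Cd68 (0.36) and Ptprc (0.26), with a summed level of 144 to 363 CPM in runners and 113 to 332 CPM in non-runners. All 10 estimates were above 0, with a median of 0.18. Fibroblast genes rose in 2 of 7 cases, Lum (0.33) and Col3a1 (0.39), at a summed 1001 to 2274 CPM in runners and 688 to 2298 CPM in non-runners. Here too all 7 estimates were above 0, with a median of 0.15.

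The blood lists did not pass for any gene. Of 6 platelet markers, Gp1bb, Gp9 and Treml1 were at a median of 0, 2 passed the filter (Pf4 and Itga2b), and the list had a summed level of 5.93 to 13.5 CPM in runners and 4.5 to 13 CPM in non-runners. Erythrocyte genes summed to 41.5 to 222 CPM in runners and 44.9 to 190 CPM in non-runners. The estimates of the 5 tested erythrocyte genes and the 2 tested platelet genes were all above 0, with medians of 0.12 and 0.19. Of 5 adipocyte genes 0 were called, at a summed 16.4 to 276 CPM in runners and 11.9 to 309 CPM in non-runners. The standard errors of their log2 changes were wide, from 0.23 for Retn to 0.28 for Lep. Of 8 myofibre genes, Myh1, which encodes a fast myosin heavy chain, rose (0.67) and the calcium pump gene Atp2a1 fell (-0.11). The part of these cell types in the change of the endothelial genes was not tested.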

How the data were processed

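The deposited table held raw read counts per gene for 62 quadriceps libraries and a length in bases for each gene, which the authors made with STAR 2.7.3a and featureCounts 2.0.0 on mm10, per the submitters' processing notes. The annotation release and the strand setting were not given in the sources used here. Per the labels' protocols, RNA came from TRIzol and column extraction with DNase digestion, and libraries were stranded and poly-A selected. Symbols were matched through GENCODE M21 for 55394 of 55487 identifiers (99.8%).

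The low-count filter was filterByExpr over the 8 groups (a count of at least 10, a total of at least 15), and the remaining genes were scaled by TMM and tested with edgeR 4.0.16 in R 4.3.3 (limma 3.58.1 loaded with it). The quasi-likelihood F test with robust dispersion had terms for group, day and time of termination, which left 46 residual degrees of freedom and a biological coefficient of variation of 14%. P-values were two-sided and adjusted by Benjamini-Hochberg over all 14549 genes. A standard error is the log2 change divided by the square root of F. The running effect is the mean over the 4 supplement arms. CPM and RPKM were computed from the counts and TMM-scaled library sizes, and their precision is limited by the read number of each library. The fit was tested on simulated counts. Alternatives were RLE scaling, no filter, DESeq2 1.42.0, a replicate number block, a purification pool term, no day or time term, single cohorts, sums per session (the runners or the non-runners of 1 day), and leaving out each day, the 4 libraries rich in ribosomal-like reads, 1 such library, or days 1 and 2. The last 2 were chosen after the data were seen.

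The members and all gene lists were chosen with earlier results of these data known. Values by animal are given for the 3 members with the smallest running p in each role and for each member not called, and up to 4 genes of smallest p are named in other lists.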

Additional observations from a re-analysis of the deposited data

Results flagged for a closer look

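In a screen of 20 members over the 8 groups (160 sets of 7 or 8 animals), the highest or lowest animal stood apart from the rest of its group by Dixon's criterion in 11 sets, which involved 6 animals. Chance flags about 1 set in 20.

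Replicate 1 of the runners given neither supplement, killed on day 1, stood apart at the top of its group in 5 of the screened members. It had 136 CPM in Cdh5 where the next animal had 91.1, 99.5 CPM in Pecam1 (next 71.4), 41 CPM in Esam (next 29.8), 55.2 CPM in Tie1 (next 42.4) and 11.6 CPM in Sox17 (next 8.39). Replicate 1 of the runners given NR alone, the library with 29.1% ribosomal-like reads, stood apart in both Notch receptor genes, with 34.4 CPM in Notch1 (next 19) and 23.3 CPM in Notch4 (next 14.3). In the same group replicate 6 was the lowest in Emcn, at 9.16 CPM (next 11). Among non-runners without supplement, replicate 6 was the highest in Notch1 at 19.6 CPM (next 15.2) and replicate 3 the highest in Pecam1 at 71.4 CPM (next 63). Replicate 1 of the non-runners given both supplements was the lowest in Icam2, at 2.55 CPM (next 4.31).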

How the results depend on the processing

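No member changed direction with running in any of 20 alternatives. The number that rose, with the share of all tested genes called in the same fit, was 31 (14%) in the reported fit, 31 (14.7%) with RLE scaling, 31 (16.4%) with DESeq2, 24 (3.81%) without a filter, 28 (14.1%) without the 4 libraries rich in ribosomal-like reads, 22 (7.52%) with counts summed per session, 18 (4.31%) in the first cohort alone, 3 (0.42%) in the second alone, and 22 to 32 (7.05% to 16.1%) with 1 day left out. Of the 31, 3 kept the call in all 20 alternatives, 14 lost it in 1, 5 in 2 to 4 and 9 in 6 or more. The calls within arms were less stable, and the share of all genes called moved as well. Under NR alone the 16 calls (0.447%) became 9 (0.0828%) without a filter, 9 (0.268%) with a purification pool term, 9 (0.177%) without replicate 1 of its runners, and 1 to 16 (0.0136% to 0.679%) with a day left out. Under both supplements the 5 calls (1.7%) became 1 (0.246%) without a filter, 3 (1.12%) with the pool term and 0 to 8 (0.204% to 3.07%) with a day left out. The contrast of noon and morning called 2 members without day 3 (1.41% of all genes), Aqp1 (-0.21) and Cldn5 (0.51). The causes were not tested. With the replicate number as a block in place of the day, 32 members rose with running (13.6%), 10 under NR alone (0.241%) and 3 under both supplements (1.55%). By the labels, animals of the same replicate number were killed on different days. The mean correlation of deviations was 0.00906 over 211 pairs of the same number and -0.00124 over 1470 pairs of other numbers. It was only 0.0149 within a day and 0.0334 within a session, so this measure cannot show whether the numbers pair the animals. Depth limits Tal1 most, with the fewest reads of the 36, a median of 39.5.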
